A study of Homo sapiens with 6 samples.

Results

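The serpins are a superfamily of proteins named after serine protease inhibitors, and in humans their genes carry symbols made of SERPIN, a letter for the clade and a number. The genes were chosen from the rows of the gene count table whose symbol has that form with a clade letter from A to I. Of 36459 gene symbols 34 are described, with 11 genes in clade A, 13 in clade B, 2 each in clades E, F and I and 1 each in clades C, D, G and H. Serpin pseudogenes were not taken, and their rows were at 0 in all libraries. AGT, which encodes angiotensinogen and is a serpin under another symbol, was not taken either, and had 4, 0 and 1 counts in PC9 and 2, 4 and 6 in PS.

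RNA was sequenced from PC9, an established human non-small cell lung cancer (lung adenocarcinoma) line that depends on mutant EGFR, in 2 conditions with 3 libraries each. Parental PC9 cells were grown without drug in 3 independent cultures. Persister (PS) cells were those that survived 15 µM erlotinib, which blocks the EGFR kinase, for 6 days, and 9 independently cultured replicates were pooled into the 3 PS libraries. Everything comes from 1 cell line, and the drug was present in every PS culture, so the persister state and the presence of erlotinib cannot be told apart.

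An inhibitory serpin offers a protease a bait loop. When the protease cleaves the loop the serpin folds around it and traps it in a covalent complex, so that each inhibitor molecule is spent once. Clade A and most of clades C to G are secreted, many of them by the liver, and control coagulation, fibrinolysis, complement and inflammation, whereas clade B proteins lack a classical signal peptide and mostly act within the cell. Some serpins, such as the collagen chaperone SERPINH1, inhibit no protease.

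Total gene counts lay between 29476725 and 34893782 per library, and 14626 genes passed the filter on low counts and were tested. Levels are given as TMM-normalized CPM, a gene's count relative to the total of its library, and a gene was called changed at a Benjamini-Hochberg adjusted p under 0.01 in the quasi-likelihood test of edgeR, fitted on the whole gene table. For 1 gene alone, an exact permutation test of 3 values against 3 could not reach a p below 0.1. Of 10 epithelial and lung markers 8 were tested, 3 were higher and 5 lower in PS, where 56.8% of all genes tested were called. KRT7 (1983 CPM in PC9 and 2725 CPM in PS), CDH1 (207 and 314 CPM) and EGFR (618 and 876 CPM) were higher. EPCAM (388 and 341 CPM), KRT8 (2323 and 1337 CPM), KRT18 (1889 and 995 CPM) and KRT19 (924 and 452 CPM) were lower. The lung markers were low, with SFTPB at 4.18 and 1.23 CPM, NAPSA at 0.275 and 0.201 CPM and no count of the lineage factor NKX2-1 in PC9. Summed markers of other cell types were low, at 11.0 to 11.2 CPM in PC9 and 8.43 to 11.0 CPM in PS for 7 hepatocyte genes, nearly all TF. For 5 leukocyte genes the sums were 75.03 to 76.8 CPM in PC9 and 19.6 to 22.8 CPM in PS, nearly all CD68, with the T cell marker CD3E at 0. The 5 fibroblast genes summed to 10.4 to 11.0 CPM in PC9 and 27.4 to 30.8 CPM in PS, nearly all COL1A1, and the 4 endothelial genes to 8.19 to 8.88 and 3.60 to 4.03 CPM. The part of these marker changes in the serpin results was not tested. In bulk RNA, fewer cells that express a gene and less of its RNA per cell cannot be told apart.

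Summed over the 34 genes, the level was 875 ± 9.75 CPM (SD, n = 3) in PC9 and 697 ± 9.24 CPM (SD, n = 3) in PS, a ratio of 0.796. Most of it lay on SERPINB1, SERPINB6, SERPINE2 and SERPINH1, whose shares shifted. SERPINB1 took 23.7% to 25.3% of the counts of the 34 genes in the PC9 libraries and 8.32% to 8.498% in the PS libraries. SERPINH1 went the other way, from 20.4% to 22.1% in PC9 to 35.7% to 37.1% in PS. A share can rise without a rise in level. SERPINE2 took a mean of 23.8% in PC9 and 27.0% in PS, while its level went from 208 to 188 CPM. The level of SERPINH1 itself went from 185 to 255 CPM.

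**Figure D1:**
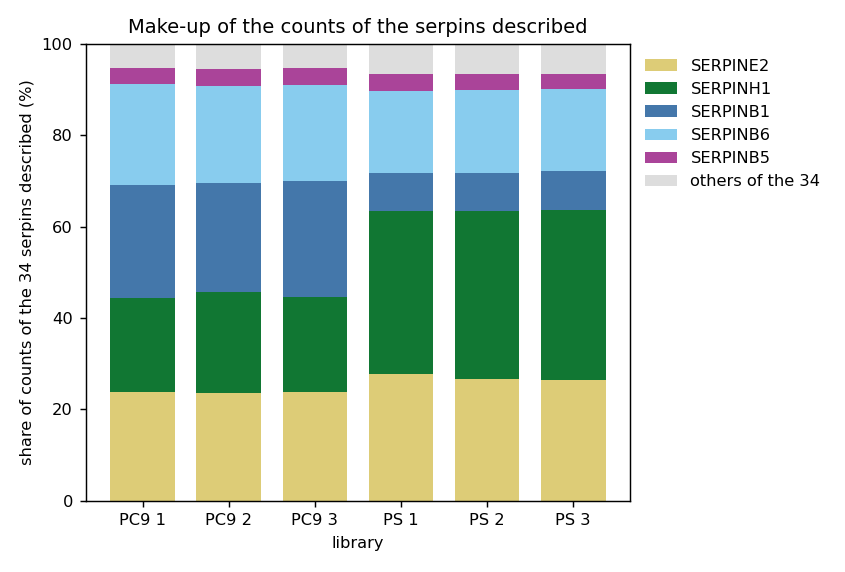
Share of the summed counts of the 34 serpin genes described (%, vertical axis) taken by 5 of them and by all others in each of the 3 PC9 and 3 PS libraries (horizontal axis). SERPINB1 fills 23.7% to 25.3% of each PC9 bar and 8.32% to 8.498% of each PS bar, and SERPINH1 20.4% to 22.1% and 35.7% to 37.1%.

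Of the 34 genes 14 were tested, 20 had too few counts to be tested, and 9 of those 20 had no count in any library. In PS 4 of the tested genes rose (SERPINB2, SERPINB8, SERPINH1 and SERPINB7) and 6 fell (SERPINB1, SERPINB9, SERPINB6, SERPINF2, SERPINB5 and SERPINE2). The 10 calls among 14 genes stand beside a background of 56.8% of all genes tested, with 28.7% called higher and 28.1% called lower. For 12 of the 14 the PC9 and PS libraries did not overlap, and that was so for 71.3% of all genes tested. With so many genes called in this comparison the number of calls says little about the serpins, and they are described below by size and direction. The median log2 fold change of the 14 genes was -0.21, and that of all genes tested was -0.0061. Changes above 1 on the log2 scale in size were called for 3 of the 14, namely SERPINB2 upward and SERPINB1 and SERPINB9 downward, against 11.6% of all genes tested. SERPINB2 had met the count filter through its PS libraries alone, so a call for it could only be upward.

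**Figure D2:**
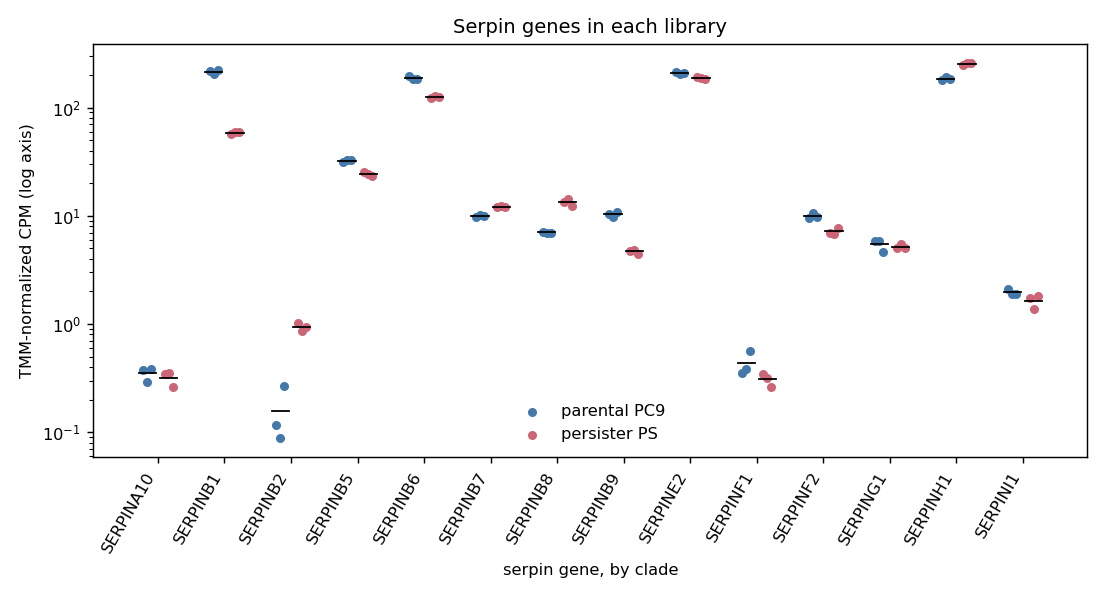
TMM-normalized CPM (vertical log axis) of 14 tested serpin genes in the 3 PC9 and 3 PS libraries, one point per library with a bar at each group's mean. SERPINB1 lies between 205 and 222 CPM in PC9 and between 57.2 and 59.3 CPM in PS, and the points of SERPINA10 and SERPING1 overlap between the groups.

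SERPINE2 (ENSG00000135919, chr2:223975045-224039318, minus strand) encodes protease nexin, a cell-surface inhibitor of thrombin and of plasminogen activators. It had 211, 205 and 209 CPM in PC9 and 191, 188 and 185 CPM in PS. The groups did not overlap but lay close together, with a fitted log2 fold change of -0.15 (standard error 0.0341, edgeR adjusted p = 0.00275). That call was lost without PC9 replicate 3 (adjusted p = 0.0158 in edgeR), without PS replicate 2 (0.0140) and without PS replicate 3 (0.0195). SERPINE3 of the same clade had 1 count in 1 PC9 library and none elsewhere.

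**Figure D3:**
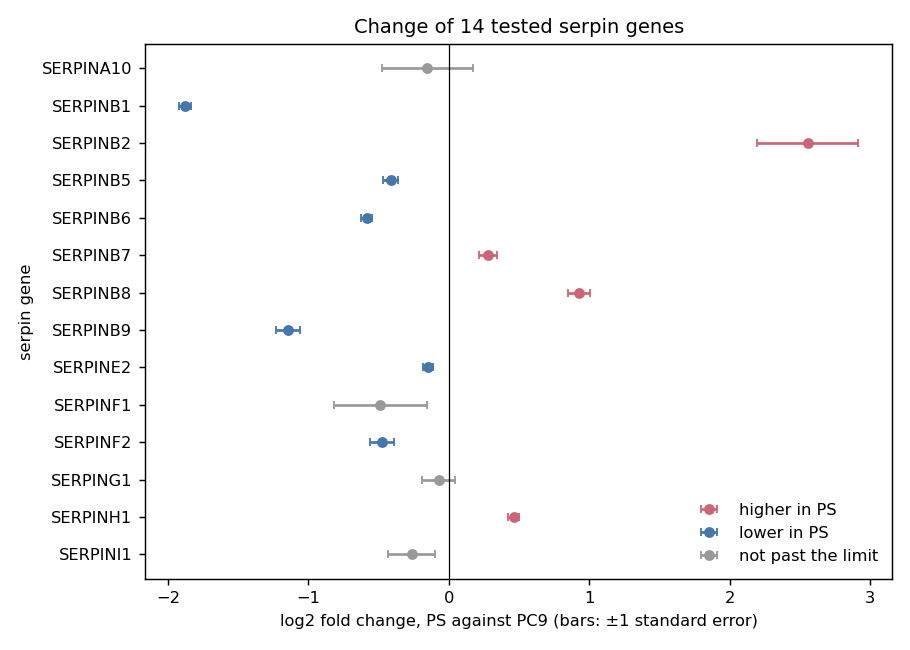
Log2 fold change of PS against PC9 (horizontal axis) for 14 tested serpin genes, with bars of 1 standard error from edgeR's quasi-likelihood fit and colours for genes called higher, called lower or not past the limit. SERPINB2 at 2.55 and SERPINB1 at -1.88 mark the ends, and the widest bars belong to genes with few counts, SERPINB2 among them.

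Summed over clade B, the intracellular serpins, the level in PS was 0.516 of that in PC9. The sum went from 464 ± 12.6 CPM (SD, n = 3) to 239 ± 3.47 CPM (SD, n = 3). Most of it lay on SERPINB1 (215 CPM in PC9 and 58.5 CPM in PS) and SERPINB6 (188 and 126 CPM). Of 7 tested clade B genes 4 fell and 3 rose, so the sum does not stand for each gene. The 13 genes of the clade sit in 2 places of the genome. The 3 genes on chromosome 6 (chr6:2832332-2972165) all fell, and their sum went from 414 ± 13.5 to 189 ± 3.63 CPM, a ratio of 0.456. On chromosome 18 (chr18:63476958-64019779) lie 10 genes, of which 4 were tested. Of those, 3 rose (SERPINB7, SERPINB2 and SERPINB8) and SERPINB5, the first gene of the row by position, fell. Among all genes tested 28.7% were called higher and 28.1% lower. With 3 and 4 tested genes this is a description of these genes, and no test of position was made.

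SERPINB1 (ENSG00000021355, chr6:2832332-2841959, minus strand) encodes an inhibitor of neutrophil elastase and related leukocyte proteases that is also made by epithelia. It had 219, 205 and 222 CPM in PC9 and 57.2, 58.8 and 59.3 CPM in PS. No PS library came near a PC9 library. The log2 fold change of -1.88 (standard error 0.0431) had an edgeR adjusted p of 8.42e-11, rank 50 of 14626 by p-value. The 3 transcripts SERPINB1-201, SERPINB1-205 and SERPINB1-204 were each called lower, with log2 fold changes of -1.89, -1.99 and -1.97. The first 2 kept the call under all 9 alternatives run on transcripts, and SERPINB1-204 lost it in 6 of them, the replicate block included (edgeR adjusted p = 0.0604). The protein-coding SERPINB1-201 carried 76.5% to 78.2% of the gene's transcript counts in PC9 and 77.7% to 78.8% in PS.

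SERPINB9 (ENSG00000170542, chr6:2887270-2903309, minus strand) encodes the inhibitor of granzyme B, the protease with which cytotoxic lymphocytes kill. Its level was 10.5, 9.78 and 10.8 CPM in PC9 and 4.76, 4.83 and 4.45 CPM in PS. Again the groups lay apart, with a fitted log2 fold change of -1.14 (standard error 0.0850, edgeR adjusted p = 5.58e-07). SERPINB6 (ENSG00000124570, chr6:2948159-2972165, minus strand), an inhibitor of cathepsin G and of some trypsin-like proteases, had 196, 185 and 185 CPM in PC9 and 123, 128 and 126 CPM in PS. It fell by less, with a fitted log2 fold change of -0.59 (standard error 0.0391, edgeR adjusted p = 2.42e-07).

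On chromosome 18, SERPINB2 (ENSG00000197632, chr18:63871692-63903888, plus strand) encodes an inhibitor of urokinase that mostly stays within the cell. It was rare, with 4, 3 and 9 counts in PC9 and 30, 27 and 32 counts in PS, or 0.157 ± 0.0964 CPM (SD, n = 3) and 0.941 ± 0.0850 CPM (SD, n = 3). The counts did not overlap, and the fitted log2 fold change came to 2.55 (standard error 0.361, edgeR adjusted p = 8.68e-05). At the transcript level SERPINB2-201, with nearly all of the gene's counts, was not called (log2 fold change 2.50, edgeR adjusted p = 0.0269). Without PC9 replicate 3, which held 9 of its PC9 counts, the log2 fold change was 3.15 (edgeR adjusted p = 9.93e-05). The annotation places the protein-coding gene ENSG00000289724 on the same strand over part of SERPINB2, so reads there may belong to either. In PS it made up 0.122% to 0.150% of the counts of the 34 genes, so its rise moved their sum little.

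SERPINB8 (ENSG00000166401, chr18:63970029-64019779, plus strand) encodes an intracellular inhibitor that can act on furin-like proteases. It had 7.15, 6.90 and 6.95 CPM in PC9 and 13.4, 14.2 and 12.3 CPM in PS, with a fitted log2 fold change of 0.92 (standard error 0.0792, edgeR adjusted p = 1.77e-06). The annotation places HMSD on the same strand over part of the gene, with 16 counts in PC9 and 16 in PS, and a long non-coding RNA on the other strand, whose reads cannot be told apart from those of SERPINB8 where the counting did not use strand. SERPINB7 (ENSG00000166396, chr18:63752935-63805376, plus strand), known as megsin, had 9.76, 10.2 and 10.0 CPM in PC9 and 11.99, 12.33 and 12.03 CPM in PS. The PS libraries were all above the PC9 libraries, by a log2 fold change of 0.28 (standard error 0.0651, edgeR adjusted p = 0.00313). This call was lost with DESeq2 (adjusted p = 0.0177), with scaling by library size only (edgeR adjusted p = 0.0117), without PC9 replicate 3 (0.0126), without PS replicate 2 (0.0140) and without PS replicate 3 (0.0117).

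SERPINB5 (ENSG00000206075, chr18:63476958-63505085, plus strand) encodes maspin, an epithelial serpin that inhibits no known protease by the usual trapping mechanism. It had 31.2, 33.0 and 32.8 CPM in PC9 and 25.3, 24.3 and 23.2 CPM in PS, with every PS library below every PC9 library. It fell by 0.42 on the log2 scale (standard error 0.0520, edgeR adjusted p = 3.42e-05). A long non-coding RNA and a processed pseudogene are annotated over it on the same strand, the second with 1 count in all.

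The other 6 genes of the chromosome 18 row were at or near 0. SERPINB3 and SERPINB4, the squamous cell carcinoma antigens, had 2, 4 and 5 counts and 5, 5 and 6 counts in PC9 and none in any PS library. Against a floor of 3 counts over the PS libraries, SERPINB3 was 3.41-fold lower and SERPINB4 4.95-fold lower in PS. These folds take the PC9 counts as exact, so they cover counting error in PS only. The 2 genes are near-identical copies, so the division of reads between them is uncertain. Their sum, 27 counts against 0, was 8.36-fold lower against the same floor. Neither gene passed the count filter. Without the filter SERPINB4 was called lower (edgeR adjusted p = 0.00305) and SERPINB3 was not (0.0136). As neither had a count in PS, a call for either could only be downward, and the uncertain division of reads enters both values. SERPINB10 had 2 counts in PC9 and 12 in PS, a ratio of 6.46 with an exact 95% counting interval of 1.44 to 59.4. Without the filter SERPINB10 was not called (edgeR adjusted p = 0.0434). SERPINB12 had 1 count in PS, SERPINB13 had 1 count in PC9, and SERPINB11 had none.

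The start regions of the clade B genes are shown because the 3 genes on chromosome 6 all fell, while those on chromosome 18 were divided. RefSeq promoters of GRCh38.p14 (250 bases before to 50 after a start) were matched for 27 of the 34 genes. SERPINA2, SERPINB10, SERPINB11, SERPINC1, SERPINF1, SERPINF2 and SERPING1 had no entry. The 4 tested genes of chromosome 18 follow, each from its plus strand 5′ to 3′, with matches to the AP-1 motif TGANTCA in capitals. The regions are chr18:63887455-63887754 for SERPINB2, chr18:63969831-63970130 for SERPINB8, chr18:63775168-63775467 for SERPINB7 (1 of its 3 promoters) and chr18:63476708-63477007 for SERPINB5. That SERPINB7 promoter was picked because it held a match.
SERPINB2: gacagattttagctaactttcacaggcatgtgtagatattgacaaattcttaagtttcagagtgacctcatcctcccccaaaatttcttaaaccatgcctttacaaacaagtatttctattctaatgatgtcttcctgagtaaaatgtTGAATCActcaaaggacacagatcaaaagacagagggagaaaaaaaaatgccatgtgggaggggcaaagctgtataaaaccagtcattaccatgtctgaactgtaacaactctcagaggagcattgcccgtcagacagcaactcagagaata
SERPINB8: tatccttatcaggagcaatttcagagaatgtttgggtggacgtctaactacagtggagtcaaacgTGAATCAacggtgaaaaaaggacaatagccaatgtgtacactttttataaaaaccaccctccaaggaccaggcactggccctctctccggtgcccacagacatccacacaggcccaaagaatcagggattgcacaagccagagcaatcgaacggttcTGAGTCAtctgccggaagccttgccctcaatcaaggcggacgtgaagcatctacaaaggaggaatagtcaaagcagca
SERPINB7: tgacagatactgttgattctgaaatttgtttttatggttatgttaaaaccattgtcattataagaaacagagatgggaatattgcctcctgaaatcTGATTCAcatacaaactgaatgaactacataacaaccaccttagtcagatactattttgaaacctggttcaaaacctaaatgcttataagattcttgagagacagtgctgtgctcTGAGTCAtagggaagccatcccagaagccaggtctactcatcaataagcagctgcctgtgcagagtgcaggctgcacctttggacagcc
SERPINB5: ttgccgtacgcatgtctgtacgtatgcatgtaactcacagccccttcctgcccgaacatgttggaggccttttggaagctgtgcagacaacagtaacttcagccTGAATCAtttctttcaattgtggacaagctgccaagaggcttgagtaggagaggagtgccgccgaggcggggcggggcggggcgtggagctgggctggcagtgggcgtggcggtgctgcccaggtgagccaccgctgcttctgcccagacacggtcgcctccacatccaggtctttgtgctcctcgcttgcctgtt

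AP-1 is the dimer of FOS and JUN family proteins that acts downstream of growth factor and stress kinases. TGANTCA, searched on both strands, starts at -102 from the SERPINB2 start, at -185 and -28 for SERPINB8, at -154 and -39 for SERPINB7 and at -146 for SERPINB5. A promoter with the motif was present for 6 of the 8 clade B genes of chromosome 18 that had an entry. These were the 4 above with SERPINB12 and SERPINB13. The motif was present for 0 of the 3 genes of chromosome 6 and 0 of 9 clade A genes of chromosome 14. A gene can have several promoters, and counted by promoter 9 of 41 serpin promoters and 7.71% of all 35116 promoters held it. No share of all genes was counted, so the counts by gene, here and for the motifs below, have no background beside them. The SERPINB7 promoter that holds the annotated start of the gene, chr18:63752807-63753106, had no match, and which of the 3 the cells used was not measured. The stricter consensus with G or C in the centre, TGAGTCA searched on both strands and wholly contained in the first motif, was added after the first matches had been seen. It was found for SERPINB8, SERPINB7 and SERPINB13 among the serpins, in 4 of 41 serpin promoters, and in 4.95% of all promoters. The motif was held by SERPINB5, which fell, as well as by the genes that rose. A match describes the letters and is not a measured binding site.

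The chromosome 6 promoters look different, as the regions of the 2 genes that fell most show, chr6:2841814-2842113 for SERPINB1 and chr6:2903260-2903559 for SERPINB9. Both are given from the minus strand 5′ to 3′, and no capitals appear because neither AP-1 motif matched.
SERPINB1: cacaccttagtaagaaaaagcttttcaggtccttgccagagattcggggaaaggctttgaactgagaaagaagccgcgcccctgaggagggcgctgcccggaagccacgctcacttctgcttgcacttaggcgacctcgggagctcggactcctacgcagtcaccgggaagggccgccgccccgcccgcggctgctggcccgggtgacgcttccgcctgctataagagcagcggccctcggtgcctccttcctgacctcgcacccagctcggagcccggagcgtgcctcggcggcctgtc
SERPINB9: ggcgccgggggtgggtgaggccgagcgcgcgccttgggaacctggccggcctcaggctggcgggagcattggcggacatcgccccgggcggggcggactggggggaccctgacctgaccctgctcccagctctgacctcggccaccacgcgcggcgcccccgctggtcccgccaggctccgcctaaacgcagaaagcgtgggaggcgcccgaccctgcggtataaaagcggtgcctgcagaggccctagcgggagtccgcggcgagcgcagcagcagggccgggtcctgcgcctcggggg

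These regions are rich in CG dinucleotides, with a median of 33.5 per 300 bases (range 7 to 45) over 6 promoters of the 3 chromosome 6 genes. The median was 2 (range 0 to 16) over 11 promoters on chromosome 18, 4 (range 1 to 12) over 13 promoters of the clade A row on chromosome 14, and 14 over all promoters. The SMAD motif CAGACA, searched on both strands, was counted for a gene if any of its promoters held it. It was present for 6 of 8 genes on chromosome 18, 1 of 3 on chromosome 6 and 5 of 9 on chromosome 14. Counted by promoter, 15 of 41 serpin promoters and 16.9% of all promoters held it.

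SERPINH1 (ENSG00000149257, chr11:75562056-75572783, plus strand) encodes the collagen chaperone HSP47 of the endoplasmic reticulum. It had 180.5, 191 and 183 CPM in PC9 and 246, 259 and 259 CPM in PS. All PS libraries were above all PC9 libraries, with a fitted log2 fold change of 0.46 (standard error 0.0390, edgeR adjusted p = 1.55e-06). Nearly all of its counts lay on the transcript SERPINH1-201, which was called higher with a fitted log2 fold change of 0.45 (standard error 0.0366), a call lost with a replicate block (edgeR adjusted p = 0.0104). SERPINH1 is a heat shock gene, and the first of its 2 RefSeq promoters, chr11:75562003-75562302 (plus strand, 5′ to 3′), is shown with the heat shock element GAANNTTC in capitals.
SERPINH1: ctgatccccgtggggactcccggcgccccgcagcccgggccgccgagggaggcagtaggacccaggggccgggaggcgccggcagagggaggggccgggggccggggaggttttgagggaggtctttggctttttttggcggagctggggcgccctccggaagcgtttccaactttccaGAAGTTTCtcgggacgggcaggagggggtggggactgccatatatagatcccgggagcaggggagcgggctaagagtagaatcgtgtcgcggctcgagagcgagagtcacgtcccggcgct

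The element starts at -71, and the other promoter, chr11:75562223-75562522, had no match. Searched on both strands, GAANNTTC was also found for SERPINA10, SERPINA11 and SERPINB7. Counted by promoter, 5 of 41 serpin promoters and 6.77% of all promoters held it. Of 13 collagen folding and modification genes, 7 rose and 3 fell, with a median log2 fold change of 0.29 against -0.0061 over all genes, and with 28.7% called higher and 28.1% called lower among all genes tested. Those that rose included the lysyl hydroxylase PLOD2, at 88.8 ± 4.80 CPM in PC9 and 193 ± 7.26 CPM in PS (log2 fold change 1.12), the prolyl hydroxylase subunit P4HA2 (1.02) and the collagen galactosyltransferase COLGALT1 (0.81). Those that fell moved less, FKBP10 by a log2 fold change of -0.30, P4HA1 by -0.27 and CRTAP by -0.17. COL1A1, a client of SERPINH1 and the fibroblast marker named above, went from 10.2 ± 0.340 to 28.3 ± 1.79 CPM. PDGFRB, another of the 5 fibroblast markers, was also called higher, at 0.363 ± 0.0986 and 1.04 ± 0.389 CPM (log2 fold change 1.52), and COL1A2, DCN and LUM were too rare to be tested, at 0.0786 CPM or less in either condition.

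Of the 5 tested serpins outside clades B, E and H, SERPINF2 was the only one called. SERPINF2 (ENSG00000167711, chr17:1742836-1755265, plus strand) encodes alpha-antiplasmin, the inhibitor of plasmin. It had 9.50, 10.6 and 9.83 CPM in PC9 and 6.92, 6.83 and 7.73 CPM in PS, without overlap, for a log2 fold change of -0.48 (standard error 0.0842, edgeR adjusted p = 0.000460). The gene's count is the sum of 1 annotated transcript and 1 transcript not matched to GENCODE 44 whose counts equal it within 2 in every library, with 849 counts each over the 6 libraries. Whether the same reads were divided in equal parts between both was not tested. At the transcript level the change of the annotated one was not called (log2 fold change -0.50, edgeR adjusted p = 0.0728).

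SERPINF1, next to it on chromosome 17, encodes pigment epithelium-derived factor, which inhibits no protease. It had 12, 13 and 19 counts in PC9 and 10, 10 and 9 in PS, and its log2 fold change of -0.49 (standard error 0.332) was not past the limit (edgeR adjusted p = 0.214). SERPING1, the C1 inhibitor of complement and contact activation, had 203, 200 and 154 counts in PC9 and 147, 173 and 171 in PS, and the groups overlapped once scaled, with a fitted log2 fold change of -0.074 (standard error 0.117, edgeR adjusted p = 0.593). SERPINI1, neuroserpin, an inhibitor of tissue plasminogen activator, had 73, 65 and 64 counts in PC9 and 51, 43 and 62 in PS. Its log2 fold change was -0.27 (standard error 0.169) and was not past the limit (edgeR adjusted p = 0.184), although the scaled PS values lay below those of PC9. A long non-coding RNA is annotated on the other strand over SERPINI1. The 95% intervals on the log2 scale ran from -0.30 to 0.16 for SERPING1, from -0.60 to 0.065 for SERPINI1 and from -1.14 to 0.16 for SERPINF1.

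The serpins of clades A, C and D, most of them plasma proteins, were nearly silent in these lung cells. Of the 11 clade A genes, 10 lie in a row on chromosome 14 (chr14:94280460-94624055), and the gene with the most counts there had 66 over all 6 libraries. That gene was SERPINA10, the protein Z-dependent inhibitor of coagulation factor X, with 13, 10 and 13 counts in PC9 and 10, 11 and 9 in PS. The groups overlapped, with a fitted log2 fold change of -0.15 (standard error 0.322, edgeR adjusted p = 0.706). SERPINA3, antichymotrypsin, had 4, 2 and 1 counts in PC9 and 0, 1 and 3 in PS. SERPINA1, antitrypsin, and SERPINA5, the protein C inhibitor, had 1 count each, both in PC9. SERPINA2, SERPINA4, SERPINA6, SERPINA7, SERPINA9, SERPINA11 and SERPINA12 had none. SERPINC1, antithrombin, had 2, 4 and 6 counts in PC9 and 3, 6 and 4 in PS. SERPIND1, heparin cofactor, had 2 counts in 1 PC9 library, and SERPINI2 had none. Of the 7 hepatocyte markers, TF, transferrin, was at 11.0 CPM in PC9 and 9.58 CPM in PS, APOA1 and FGB were at 0 and the other 4, ALB among them, averaged 0.0587 CPM or less.

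Levels of different genes were compared per length, in TPM, a count per length relative to the library, computed from the transcripts matched to GENCODE 44. SERPINB1, SERPINB6, SERPINE2 and SERPINH1 had the highest TPM of the 34 genes in both conditions. In PC9 the order was SERPINB1 at 247 ± 10.7 TPM (SD, n = 3), SERPINB6 at 239 ± 4.72 TPM, SERPINE2 at 183 ± 1.30 TPM and SERPINH1 at 171 ± 7.58 TPM. In PS it was SERPINH1 at 243 ± 2.22 TPM (SD, n = 3), SERPINE2 at 169 ± 5.45 TPM, SERPINB6 at 161 ± 1.91 TPM and SERPINB1 at 68.7 ± 0.421 TPM. Only 91.6% of the SERPINB6 counts were on matched transcripts, so its TPM is too low. Scaled to all its counts, SERPINB6 was at 261 ± 5.20 TPM in PC9, above SERPINB1, and at 177 ± 1.05 TPM in PS, where it overlapped SERPINE2. The places of SERPINB6 beside SERPINB1 in PC9 and beside SERPINE2 in PS are therefore not settled. On both scales SERPINH1 was the lowest of the 4 in PC9 and the highest in PS, and SERPINB1 the lowest in PS, without overlap with the next gene. SERPINB5 followed at a distance in both conditions, at 23.9 ± 1.12 and 18.5 ± 1.19 TPM. Both scales sum all matched transcripts of a gene, coding or not. SERPINB1-205, of 782 bases and without a defined coding sequence, held 18.5% to 21.2% of the SERPINB1 transcript counts in PC9. Being short, it weighs more per length. Coding transcripts were not compared alone, so the places of SERPINB1 and SERPINH1 in PC9 hold for all matched transcripts together.

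**Figure D4:**
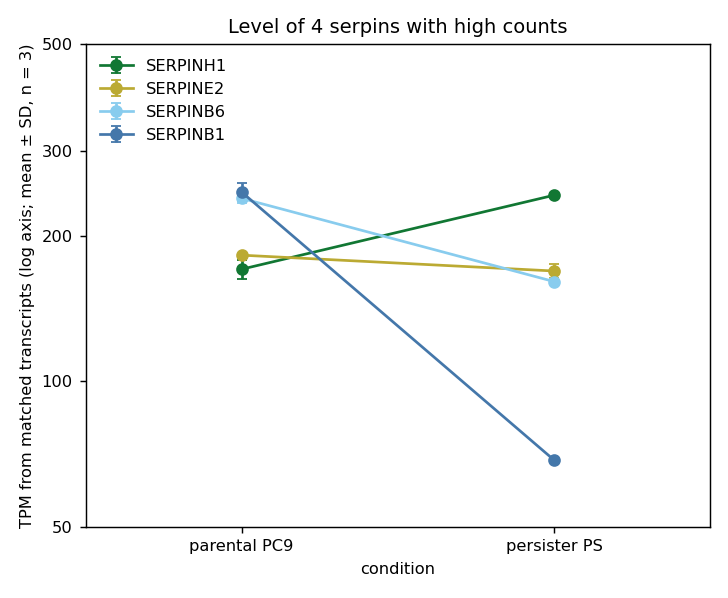
Mean TPM (vertical log axis, with bars of 1 SD over 3 libraries) of SERPINB1, SERPINB6, SERPINE2 and SERPINH1 in PC9 and PS (horizontal axis). The lines cross so that SERPINB1, at 247 TPM in PC9, is the lowest of the 4 in PS at 68.7 TPM, and SERPINH1 goes from 171 to 243 TPM. SERPINB6 is drawn from its matched transcripts, 91.6% of its counts. All matched transcripts are summed, those without a defined coding sequence included.

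At the transcript level 107 transcripts of the 34 genes had counts and 47, from 12 genes, were tested. In PS 1 of them rose, the main transcript of SERPINH1, and 7 fell, beside 3.89% called higher and 3.91% called lower, 7.80% in all, of the 54499 transcripts tested. The 7 were 3 of SERPINB1, 2 of SERPINB6 and 1 each of SERPINB5 and SERPINB9. When any 1 library was left out 2 to 4 serpin transcripts were called lower, and with a replicate block 2 were, so the count of 7 holds for all 6 libraries together. A shift in the mix of transcripts within a gene was tested for 8 serpins with edgeR's diffSpliceDGE, and 0 were called, with 0 at an unadjusted p under 0.05 and a smallest p of 0.585, where 1.89% of all genes tested were called. Without PC9 replicate 1, SERPINB6 was called (adjusted p = 0.000310 in the same test).

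The plasminogen system is what SERPINE2, SERPINB2, SERPINF2 and SERPINI1 act on, and both plasminogen activators fell in PS. PLAT, the tissue activator, went from 45.6 ± 0.124 CPM (SD, n = 3) to 6.61 ± 0.217 CPM (SD, n = 3), a log2 fold change of -2.78 (standard error 0.0541, edgeR adjusted p = 2.65e-11). PLAU, urokinase, went from 156 ± 2.90 to 86.5 ± 1.68 CPM, a log2 fold change of -0.85 (standard error 0.0369, edgeR adjusted p = 8.70e-09). The urokinase receptor gene PLAUR was at 22.4 ± 1.11 and 22.0 ± 0.660 CPM, and its log2 fold change of -0.027 was not past the limit (edgeR adjusted p = 0.692). Plasminogen itself (PLG) was too rare to be tested, at 0.147 and 0.212 CPM.

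Of the 11 genes listed for plasminogen activation 9 were tested, 3 rose and 3 fell, with a median log2 fold change of -0.027, against 28.7% called higher and 28.1% called lower among all genes tested. ANXA2 and S100A10, which together form a plasminogen receptor, moved in opposite directions, with log2 fold changes of 0.37 and -0.74. LRP1, a receptor that clears complexes of proteases with their inhibitors, rose from 82.8 ± 5.92 to 109 ± 12.6 CPM (log2 fold change 0.39). VTN, vitronectin, an adhesive glycoprotein of plasma and matrix, had 0, 1 and 0 counts in PC9 and 64, 60 and 49 in PS, a ratio of 186 with an exact 95% counting interval of 33.0 to 7399, and had met the count filter through PS alone.

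**Figure D5:**
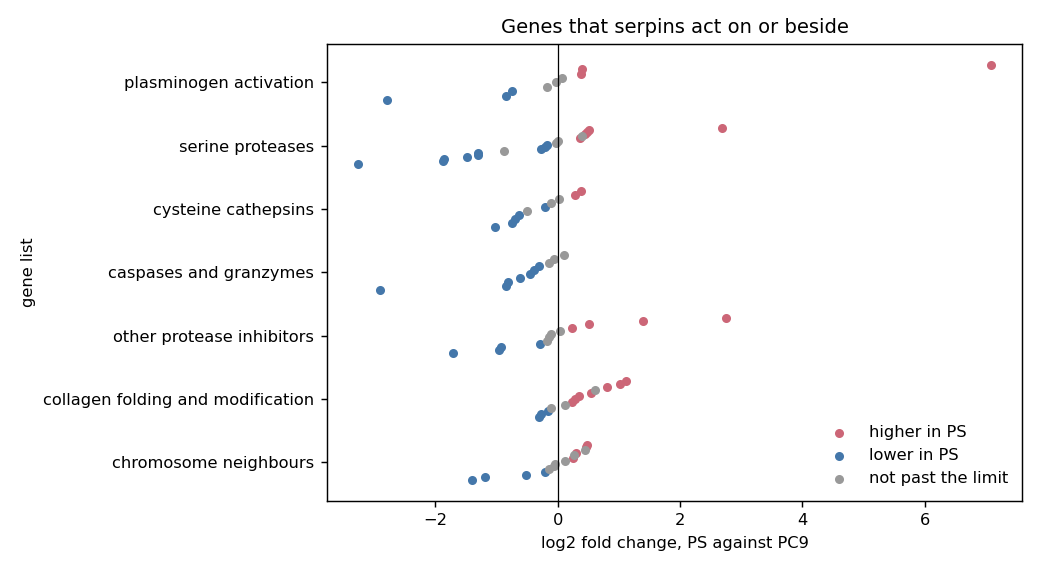
Log2 fold change of PS against PC9 (horizontal axis) of every tested gene in 7 lists of genes that serpins act on or lie beside (vertical axis), coloured by the call at an adjusted p under 0.01. In the caspase and granzyme list 7 of 10 tested genes were called lower, beside 28.1% of all genes tested, and the point farthest to the right is VTN.

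Of 25 listed trypsin-like and chymotrypsin-like serine proteases and related enzymes 18 were tested, 5 rose and 9 fell, with a median log2 fold change of -0.19, where 56.8% of all genes tested were called, 28.7% upward and 28.1% downward. TMPRSS4 fell from 21.6 ± 1.64 to 2.24 ± 0.426 CPM (log2 fold change -3.26), and TMPRSS2, a protease of the same family, rose from 0.608 ± 0.0965 to 3.91 ± 0.248 CPM (2.68). Most kallikrein-related peptidases that were called fell, with KLK6 (-1.30), KLK7 (-0.21), KLK8 (-1.88) and KLK10 (-1.86) lower and KLK5 (0.51) higher on the log2 scale. KLK11 (-0.88) was not past the limit. The lysosomal carboxypeptidase CTSA rose as well (0.44). FURIN, given above as a target of SERPINB8, had a log2 fold change of -0.27. Neutrophil elastase (ELANE) and cathepsin G (CTSG), the leukocyte targets of SERPINB1 and SERPINB6, were at 0 in all libraries.

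Of 11 cysteine cathepsins 10 were tested, 2 rose and 5 fell, with a median log2 fold change of -0.35, beside the same shares of 28.7% and 28.1% over all genes tested. CTSL, the target of SERPINB3, went from 107 ± 0.644 to 64.0 ± 2.39 CPM (log2 fold change -0.74), and CTSF (-1.03) and CTSH (-0.63) fell as well, while CTSZ (0.39) and CTSV (0.28) rose. Of 16 caspases and granzymes 10 were tested and 7 fell, with a median log2 fold change of -0.42, and 28.1% of all genes tested fell. CASP10 (-0.84), CASP4 (-0.80) and CASP6 (-0.46) had the smallest p-values among them. CASP2, at 75.1 ± 2.24 and 80.3 ± 2.72 CPM, was the tested member with the highest log2 fold change, 0.096, which was not past the limit (edgeR adjusted p = 0.0684). The granzyme B gene GZMB, whose product SERPINB9 inhibits, was at 0 in all libraries, as were GZMA, GZMH and GZMK.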

How the data were processed

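Poly-A RNA of 3 PC9 and 3 PS libraries was sequenced. Per their methods, the authors converted and trimmed reads with bases2fastq 1.1.0, applied quality control with FASTP 0.23.3 and pseudoaligned with Kallisto 0.46.1 to the GRCh38 transcripts of Ensembl 96. Estimated counts from Kallisto were deposited by the authors per gene symbol and per transcript, already as whole numbers and not normalized. Whether the counting used strand was not given in the sources used here. Kallisto divides reads that match several transcripts, and that uncertainty enters no test. Libraries of another laboratory, which the study combined with these in Sleuth, were not analysed here.

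Groups, replicate numbers and the day and dose of erlotinib came from the labels and methods. The members, gene lists and motifs were chosen with earlier results of these data known. The lists of partners and of cell type markers were written from general knowledge. The symbol pattern matched 35 genes, of which 1 is not reported here and enters no count, sum or share over serpins. The other 34 are each accounted for, and of each list the genes named are up to 3 with the smallest p-value in each direction past the limit, and direct partners of a named serpin. KLK7, KLK8, KLK11, CASP2, GZMA, GZMH, GZMK, SPINT2, the markers given and the chromosome neighbours beyond those 3 were named after their values were seen.

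Genes passing filterByExpr were normalized with TMM and tested in R 4.3.3 with edgeR 4.0.16 (glmQLFit and glmQLFTest, PS against PC9, no block, Benjamini-Hochberg adjustment over all genes tested, limit 0.01). The standard error is the size of the log2 fold change divided by the square root of F. The same test was run on transcripts, and their usage was tested with diffSpliceDGE and Simes p-values. Of 188753 transcripts 167067 were matched to GENCODE 44, with 95.8% of transcript counts. Their annotated lengths gave the TPM values, and coordinates are from the same annotation of GRCh38. In simulated counts 200 features were changed by 1 on the log2 scale, with a dispersion of 0.01 throughout. The test recovered 92.0% of changed genes (1.08% of calls wrong, 14626 genes) and 67.5% of changed transcripts (0% wrong, 54499 transcripts). Of changes in usage 95.5% were recovered (2.55% wrong, 10386 genes). In the data 56.8% of genes were called, and 11.6% with a change above 1 in size. These rates therefore do not carry over to the calls given here. Intervals of count ratios cover counting error only, and the floor of 3 counts covers it in PS only. The spread between libraries sets the precision of other values. The alternatives were DESeq2 1.42.0, voom from limma 3.58.1, other normalizations, filters and limits, gene counts rebuilt by summing transcripts, a replicate block and the removal of each library. Promoters came from RefSeq.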

Additional observations from a re-analysis of the deposited data

How the results depend on the processing

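Of the 14 tested serpins described, 12 kept their direction and their side of the limit under all 14 alternatives. The log2 fold change of SERPINB1 ranged from -1.93 to -1.86 and that of SERPINB2 from 2.27 to 3.15. SERPINB7 and SERPINE2 kept their direction and lost the call under the settings named beside them. A required log2 fold change above 1 in size left 1 serpin higher and 2 lower, and 6 partner genes higher and 10 lower against 21 and 31. With a library left out in turn, 3 to 4 serpins were higher and 5 to 6 lower, 2 to 4 serpin transcripts were lower and 1 higher, and 0 to 1 serpins changed in usage; the cause was not tested. Replicate numbers are shared between the conditions, and the correlations of same-numbered libraries' deviations were 0.124, 0.0236 and 0.0215. Not every library correlated best with its own number. With 3 libraries per condition these values cannot settle whether the numbers pair the libraries. With a replicate block, 8671 genes were called against 8307, 4 serpins were higher and 6 lower, and 0 serpin transcripts were higher and 2 lower. Scaling TPM to all counts of a gene, chosen after seeing the data, changed the order of SERPINB6 and its neighbours as given beside it. At a limit of 0.05, 2 serpin transcripts were higher and 8 lower. Other normalizations moved the median log2 fold change of all genes to at most -0.059. The sum of SERPINB3 and SERPINB4 did not pass the count filter and was not tested under it. Without the filter the sum was called lower (edgeR adjusted p = 0.000359), and with no count in PS a call could only be downward. Depth limits the genes with few counts, SERPINB2, SERPINF1 and SERPINA10, whose standard errors were 0.361, 0.332 and 0.322.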

Other observations

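Of 18 listed protease inhibitors of other families 12 were tested, 4 rose and 4 fell, with a median log2 fold change of -0.13, near the background of 28.7% called higher and 28.1% called lower among all genes tested. PI3, elafin, an elastase inhibitor of epithelia, rose from 0.969 ± 0.118 CPM (SD, n = 3) to 6.56 ± 0.516 CPM (SD, n = 3), a log2 fold change of 2.76. CST6, a secreted cystatin, went from 23.3 ± 1.102 to 61.7 ± 0.646 CPM (log2 fold change 1.40), and SLPI, the secretory leukocyte protease inhibitor, rose with a log2 fold change of 0.51. WFDC2, a relative of SLPI, fell from 68.1 ± 5.57 to 20.8 ± 1.59 CPM (-1.71). TFPI, the inhibitor of the tissue factor pathway, went from 83.4 ± 5.47 to 42.7 ± 1.91 CPM (-0.97), and CSTB, an intracellular cystatin, from 199 ± 1.82 to 104 ± 3.05 CPM (-0.93). SPINT2, an inhibitor of membrane-bound serine proteases, had 544 ± 24.5 and 557 ± 13.7 CPM, with a log2 fold change of 0.034 that was not past the limit.

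Of 17 listed genes next to the 3 serpin rows 14 were tested, 4 rose and 4 fell, with a median log2 fold change of 0.033, again near the background share of 56.8% called. Around the chromosome 6 row GMDS (log2 fold change 0.30) and RIPK1 (0.24) were called higher, and WRNIP1 (-0.14), MYLK4 (0.44) and NQO2 (-0.058) were not past the limit. Beside the chromosome 18 row, BCL2 (0.46) was higher, PHLPP1 (-1.19) and KDSR (-0.21) were lower, and VPS4B (0.12) was not past the limit. Beside the chromosome 14 row, DICER1 (0.47) was higher and CLMN (-0.52) and IFI27L2 (-1.40) were lower.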
